A study of Mus musculus with 3 samples.

Results

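Ependymal-like ciliated nuclei made up 85 of the 9199 barcodes measured by single-nucleus RNA sequencing (snRNAseq) of the dissected basolateral amygdala (BLA). They were chosen by a gate on raw counts of unique molecular identifiers (UMIs), each standing for 1 captured transcript. A barcode was a member if it held more than 200 genes and less than 20% mitochondrial UMIs, and if Dnah12, Dnah6, Dnah9, Spag17, Cfap43 and Foxj1 together gave at least 4 UMIs and at least 0.2% of its UMIs. In addition, the astrocyte genes Slc1a2, Slc1a3, Slc4a4 and Plpp3 had to stay under 0.8%. Since these 10 gate genes picked the members, their levels and the number of members are given as a description, without a test.

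The tissue came from male C57BL/6NRj mice at postnatal day 56, all of 1 condition with no treatment, and the study pooled 4 brains for its adult dataset. It was deposited as 3 libraries of 819, 3792 and 4588 barcodes, with 8078394, 24354374 and 33049068 UMIs in libraries 1, 2 and 3. The labels do not say whether these came from separate suspensions of nuclei, so the spread between libraries may be technical. The gate found 48 members among the 3772 barcodes passing the quality limits in library 2 and 37 among 4512 in library 3. In library 1 it found 0 of 819, which allows a share of up to 0.366% when a count of 0 is taken to allow 3. No member barcode occurred in a second library, although libraries 2 and 3 shared 7 barcodes, libraries 1 and 2 shared 2, and libraries 1 and 3 shared 1.

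Ependymal cells line the ventricles of the brain, and each carries a tuft of motile cilia that moves cerebrospinal fluid. The shaft of a motile cilium, the axoneme, is built of microtubule doublets around a central pair, and outer and inner dynein arms slide the doublets against each other. Radial spokes and the nexin-dynein regulatory complex control this sliding, and cytoplasmic factors assemble the dynein arms before they enter the cilium. Transcription of these parts is switched on by Foxj1 and by regulatory factor X (RFX) proteins, which bind the X-box motif, while geminin-family factors such as Mcidas and Gmnc start the programme of making many cilia.

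Members made up 1.27% of passing barcodes in library 2 (95% exact Clopper-Pearson interval 0.940 to 1.68) and 0.820% in library 3 (0.578 to 1.13), 1.05% ± 0.320 (SD, n = 2 libraries). The interval of library 1 by the same method was 0 to 0.449%. These intervals cover counting error only, and no comparison between libraries is drawn from them. Members held 29.2% of all UMIs of the 6 ciliary gate genes in library 2 and 21.9% in library 3, while holding 0.380% and 0.301% of all UMIs.

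Depth and RNA quality differed between members and the remaining barcodes. The median member had 1864 UMIs in library 2 (range 700 to 3847) and 2008 in library 3 (791 to 16153), against 3408 and 4261 in the other barcodes. Its median number of genes was 1159 and 1215. The median share of mitochondrial UMIs was higher in members, at 0.507% and 0.161%, than in the other barcodes, at 0.0849% and 0.0372%. The part of depth and of mitochondrial RNA in the differences below was not tested.

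Of the 6 ciliary gate genes, 5 carried the gate and Foxj1 carried none of it. Dnah12, an axonemal dynein heavy chain, had 411 UMIs in the members of library 2 and 254 in those of library 3, or 4445 and 2557 CPM (the gene's UMIs scaled by the summed UMIs of the group), against 5.65 and 3.80 CPM in the other barcodes. A Dnah12 UMI was present in 100% and 97.3% of members. Dnah6, another heavy chain, reached 1363 and 956 CPM against 3.13 and 2.37. Spag17, a protein of the central pair, reached 1784 and 1329 CPM against 6.64 and 3.68. These genes, and Cfap43 at 1482 and 856 CPM against 2.72 and 1.55, were close to absent from the other barcodes. The gate placed barcodes rich in these genes among the members, so a low level elsewhere follows in part from the choice.

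Dnah9, an outer-arm heavy chain and also a gate gene, was not as low in the other barcodes. It stood at 1514 and 1067 CPM in members and at 79.4 and 61.2 CPM in the other barcodes, a ratio of 19.1 in library 2 and 17.4 in library 3. Foxj1, the forkhead regulator of motile ciliogenesis, had 0 UMIs in all 85 members, whose 191807 UMIs together allow a level of up to 15.6 CPM. The other barcodes held Foxj1 at 0.165 and 0.182 CPM. Its gene spans 4.70 kb, against 182 to 337 kb for the other ciliary gate genes, and the part of gene length in this was not tested.

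Members just inside the gate differed between the libraries. In library 2 the lowest ciliary share was 0.571%, in a member of 700 UMIs with 1.71% axonemal and 1.43% neuronal UMIs, and the highest of the 185 barcodes with at least 4 ciliary UMIs below the limit had 0.141%. In library 3, 4 members lay between 0.204% and 0.231%, the next member stood at 0.517%, and the highest of 165 such barcodes below the limit had 0.163%. These 4 had 4360 to 16153 UMIs, while none of the other 33 exceeded 3571. Neuronal marker genes took 1.05% to 2.30% of their UMIs, against a median of 0.149% and a highest value of 0.346% in the other 33. Axonemal genes outside the gate took 0.723% to 1.14% of their UMIs, and at least 3.34% in the others, so these 4 barcodes stood apart from the rest. They hold 36.3% of the member UMIs of library 3 and lower most of its ciliary levels below. Without them the gate genes took 0.940% in place of 0.676% of the summed UMIs, the dynein heavy chains 1.40% in place of 0.995% and the central apparatus 1.59% in place of 1.14%. No doublet caller was run. In all, 3 more barcodes, of 7778 to 9103 UMIs, met the ciliary limits with 37 to 41 ciliary UMIs but failed the astrocyte limit, at 1.05% to 1.16%.

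**Figure D1:**
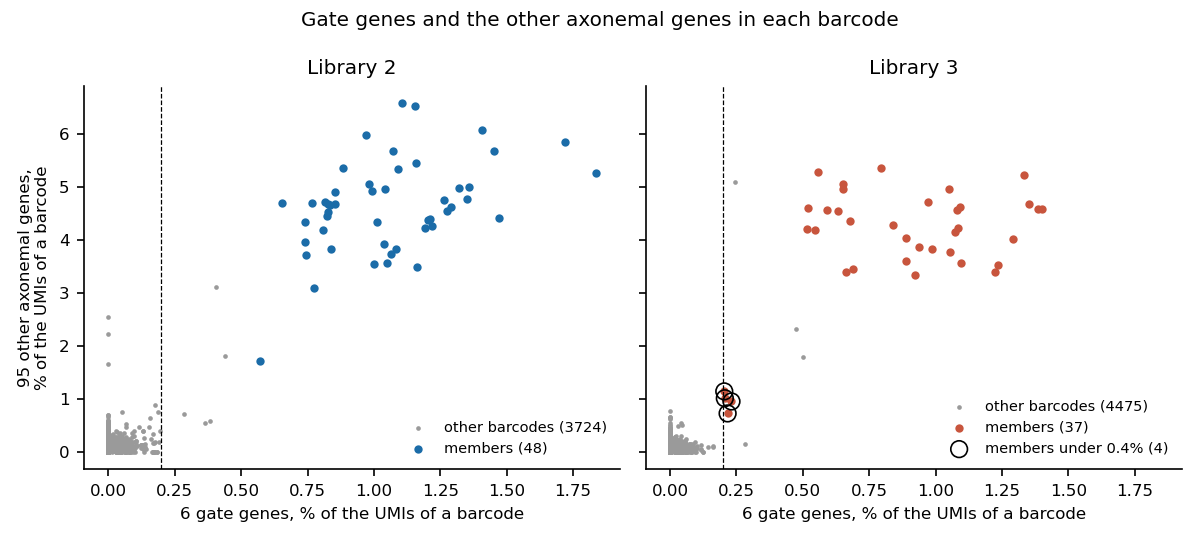
Each point is a barcode passing the quality limits in library 2 (left) or 3 (right); the x axis gives the share of its UMIs from the 6 ciliary gate genes and the y axis the share from the 95 axonemal genes outside the gate, both in percent, with the 0.2% limit as a dashed line. Members lie at 1.71% to 6.58% on the y axis in library 2 and, apart from 4 members near the limit at 0.723% to 1.14%, at 3.34% to 5.35% in library 3, while all but 5 of the other barcodes lie under 2%.

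The cilium was represented far beyond the gate. Over 95 axonemal genes that the gate did not use, the median member held a UMI of 37.5 genes in library 2 (range 11 to 54) and of 36 in library 3 (17 to 52). Together these genes took a median 4.68% of the UMIs of a member in library 2 (1.71% to 6.58%) and 4.20% in library 3 (0.723% to 5.35%). The medians in the other barcodes were 0.0916% and 0.0671%. After every barcode was thinned to 1000 UMIs, which left out 2 and 4 members, 643 and 235 other, 76 and 35 astrocyte-gated and 11 and 15 oligodendrocyte-gated barcodes, members held a median of 28 and 25 of the 95 genes. The other barcodes held 1 in either library, astrocyte-gated barcodes 1, and oligodendrocyte-gated barcodes 0.

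At 2% or more of UMIs, this axonemal share took in 47 of the 48 members of library 2 and 33 of the 37 of library 3. It was reached by 3 of 3724 and 2 of 4475 other barcodes. Of those 5, 4 had under 4 ciliary UMIs and 1 failed the astrocyte limit. In summed UMIs the 95 genes made up 4.71% and 3.14% of the RNA of members, against 0.106% and 0.0810% in the other barcodes. Oligodendrocyte-gated barcodes, of a cell type without motile cilia, had 0.0401% and 0.0393%. Without the 4 low-share members the value of library 3 was 4.36%, close to that of library 2.

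For single genes, UMIs were summed over members and over the other barcodes of each library, and the sums were compared with edgeR's quasi-likelihood test with the library as a block, Benjamini-Hochberg adjusted over 15428 genes at 0.05. Of these genes 927 were higher in members (6.01%) and 1331 lower (8.63%). The split depended on the tool, since DESeq2 gave 821 higher and 507 lower. At a ciliary share of 0.4% or more, which leaves out the 4 low-share members, edgeR gave 1027 higher and 1606 lower. Because the members were gated in the same barcodes, genes that go with the gate genes had to come out higher, so the calls describe the gated barcodes and nothing is read from their number. The words higher and lower below stand for a call at this threshold. Genes whose values follow a count of higher genes passed it, unless they are said not to have passed, not to have been tested or to have been at 0. Fitted log2 fold changes are on the TMM (trimmed mean of M-values) scale, on which the median of all tested genes was -0.80.

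Among the 95 axonemal genes 89 were tested, 76 were higher and 0 lower, with a median log2 fold change of 4.98. The higher genes covered every part of the axoneme. Of the dynein heavy chains outside the gate, 10 of the 11 tested were higher. Dnah11, an outer-arm chain, was at 1968 and 1158 CPM in the members of libraries 2 and 3 and at 6.23 and 4.93 CPM in the other barcodes (log2 fold change 7.53, SE 0.52). Dnah3, an inner-arm chain, was at 1168 and 695 CPM against 1.57 and 1.43. Dnah7a, Dnah7b and Dnah7c were higher as well, but as near-identical copies they may share reads. Dnah17 and Dnah8, chains known from the sperm tail, had 0 UMIs in members of either library.

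Genes of the intermediate chains, light chains and docking complexes were higher in 10 of 11 cases. Wdr63, an inner-arm intermediate chain, was at 768 and 443 CPM in members and at 0.124 and 0.304 CPM elsewhere (log2 fold change 10.72, SE 0.50). Armc4, which docks outer arms, was at 714 and 604 CPM against 0.784 and 0.730. Dnal4, with 1 UMI in each library, did not pass. The factors that assemble the arms in the cytoplasm were higher in 7 of 11 cases. Dnaaf3 had 238 and 80.5 CPM in members and 0.247 and 0.0912 CPM in the other barcodes. Dnaaf2, Spag1, Cfap298 and Cfap300 did not pass.

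The central apparatus was higher in 11 of 12 genes. Spag16, a protein of the central pair, was at 3017 and 2174 CPM in members against 11.4 and 13.4 in the other barcodes, with a UMI in 97.9% and 97.3% of members. In oligodendrocyte-gated barcodes, with a median of 2806 and 2075 UMIs, that share was 1.19% and 1.11%. Hydin, whose loss is known to stiffen the beat of cilia and cause hydrocephalus, was at 1503 and 946 CPM against 12.7 and 6.54. Cfap54, at 2282 and 1399 CPM in members, was also present at 106 and 66.1 CPM in the other barcodes, which gave it the smaller log2 fold change of 3.86 (SE 0.47).

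Radial spoke genes were higher in 11 of 14 cases and those of the nexin-dynein regulatory complex and its rulers in 8 of 9. Cfap61, of the spokes, was at 1503 and 976 CPM in members against 12.9 and 10.5 in the other barcodes. Ccdc39, a ruler that sets the spacing of the arms, was at 454 and 282 CPM against 49.9 and 36.8. The remaining axonemal genes were higher in 19 of 21 cases. Cfap299 gave more UMIs in members than any other gene on these lists, 446 and 360, or 4823 and 3624 CPM against 11.8 and 10.9 CPM elsewhere (log2 fold change 7.97, SE 0.69). Per kilobase of gene span its level was 10.2 and 7.67 CPM, below the 22.4 and 12.9 CPM of Dnah12.

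**Figure D2:**
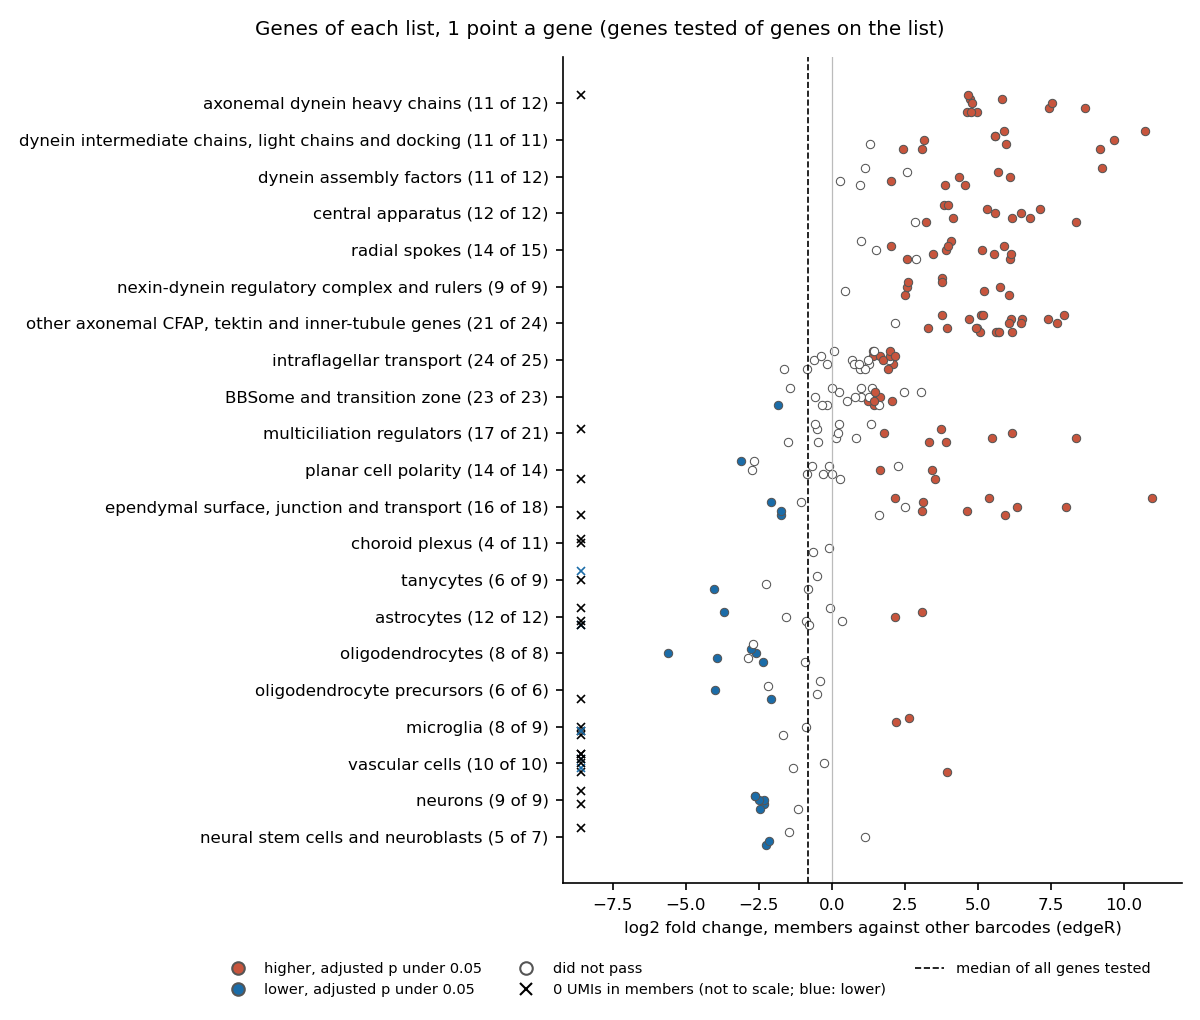
Each point is a tested gene of the list named on the left, placed by its fitted log2 fold change between members and the other barcodes on the x axis; filled points passed an adjusted p of 0.05, crosses mark genes with 0 UMIs in members at an arbitrary position, and the dashed line is the median of all tested genes (-0.80). The 7 axonemal lists at the top lie to the right with medians from 3.77 to 5.64, the neuron and oligodendrocyte lists to the left.

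Genes of the transport machinery that primary cilia also use differed less than the axoneme. Intraflagellar transport trains carry cargo along the shaft of all cilia, and 9 of their 24 tested genes were higher and 0 lower, with a median log2 fold change of 1.27. Ift88 was at 443 and 292 CPM in members against 70.6 and 60.2 in the other barcodes (log2 fold change 1.92, SE 0.35). Dync2h1, the motor of the return trip, was at 757 and 513 CPM against 248 and 188 and did not pass here (log2 fold change 0.98), but passed under 5 alternatives, with values from 1.05 to 1.17, DESeq2 and its size factors in edgeR among them. Of the BBSome and transition zone, the coat and gate of the cilium, 6 of 23 genes were higher and 1 lower, with a median of 1.25. Cep290, which tethers the membrane at the base, was at 400 and 262 CPM against 81.7 and 60.0. The lower gene was Ahi1, at 195 and 352 CPM in members and 724 and 600 CPM in the other barcodes.

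Regulators of multiciliation were split. Of 17 tested outside the gate, 7 were higher and 0 lower. Rfx2, an X-box factor, had 303 and 121 CPM in members against 10.0 and 8.42 in the other barcodes (log2 fold change 3.90, SE 0.45). Trp73, upstream of Foxj1 in multiciliated cells, had 8 and 11 UMIs, 86.5 and 111 CPM, against 0.289 and 0.122 CPM. Gmnc, the geminin-family factor, had 6 and 3 UMIs in members and 1.15 and 0.335 CPM elsewhere, and Myb had 8 and 6 UMIs. Mcidas, like Foxj1, had 0 UMIs in members of either library, and Ccno and Foxn4 had none either. Rfx3, another X-box factor, was at 1125 and 1127 CPM in members, yet the other barcodes had 376 and 482 CPM and it did not pass (log2 fold change 0.85, SE 0.43). It passed at a ciliary share of 0.4% or more (0.98) and without the 10% deepest members (0.77). Rfx4 was higher than in the other barcodes, at 324 and 191 CPM against 39.6 and 63.2, but lay below the 422 and 372 CPM of astrocyte-gated barcodes, a difference that did not pass here and passed under 3 alternatives, at a ciliary share of 0.4% or more (log2 fold change -0.69), without the 10% deepest members (-0.84) and without a filter on low counts (-1.18).

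Because RFX factors act through the X-box, the promoters of the axonemal genes were read from RefSeq (GRCm38.p6), 250 bases before to 50 bases after each start site. Of the 100 axonemal genes, gate genes included, 81 had a promoter in that table. The 14-letter X-box, made of the arms GTNNCC and GGNAAC with 2 bases between them, on either strand, occurred in 9 of these 81 genes (11.1%), against 1.49% of all 27025 genes with a promoter of this length. The shorter core GTTGCC, which can lie inside the longer motif, occurred in 33 of 81 (40.7%) against 14.1%, and in 11 of 20 intraflagellar transport genes. In contrast, the forkhead motif TGTTTAC occurred in 4 of 81 (4.94%) against 4.05%. Of the promoters of 10 astrocyte genes 0 held either X-box form, whereas among 8 neuron genes the core was in 3 (37.5%), a share near that of the axonemal genes, and the 14-letter form in 0. Among the 9 axonemal genes with the 14-letter form, Cfap298 did not pass, and Pih1d3 and Tekt4 were not tested. A match is a description of these letters and not a binding site. The motif was also in 2 of the 16 matched promoters among the 20 genes with the largest log2 fold change, which are given below. The 5 sequences that follow are of Iqca, from those 20, and of 4 genes on the axonemal lists. They are shown because the match ends before the start site and the gene was higher in members. The match is in capitals within up to 20 bases on either side, read along the strand of the gene:
Iqca: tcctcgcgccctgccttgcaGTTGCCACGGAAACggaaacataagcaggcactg
Cfap206: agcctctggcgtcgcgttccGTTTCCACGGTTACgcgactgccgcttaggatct
Dnaaf5: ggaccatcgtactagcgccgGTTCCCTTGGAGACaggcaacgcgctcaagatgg
Ccdc151: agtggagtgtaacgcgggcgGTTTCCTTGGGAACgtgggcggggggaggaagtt
Pih1d2: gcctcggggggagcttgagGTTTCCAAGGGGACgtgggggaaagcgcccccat

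The Iqca window lies at chr1:90153503-90153556 on the minus strand, with the match starting 100 bases before the start site. That of Cfap206, a gene of the radial spokes, lies at chr4:34730196-34730249 on the minus strand, 23 bases before it. That of Dnaaf5, an assembly factor, lies at chr5:139150197-139150250 on the plus strand, 18 bases before it. That of Ccdc151, of the outer-arm docking complex, lies at chr9:22002635-22002688 on the minus strand, 34 bases before it. The Pih1d2 window lies at chr9:50617071-50617123 on the plus strand, 231 bases before it. Their levels differed widely all the same. Iqca was at 487 and 312 CPM in members, Cfap206 at 249 and 161, Ccdc151 at 54.1 and 111, Dnaaf5 at 119 and 60.4, and Pih1d2 at 141 and 50.3. In the other barcodes Dnaaf5 had 16.2 and 13.1 CPM and the other 4 at most 6.64.

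The 20 genes with the largest log2 fold change outside the gate, among those found in at least 20% of members of each library, were nearly all at the floor in the rest of the tissue. All 20 were at or under 2.01 CPM in the other barcodes of both libraries. A low level there follows from the choice by fold and is given as a description. Tmem212, a membrane protein known as an ependymal marker, had 146 and 92 UMIs in members, 1579 and 926 CPM, and 0.577 and 0.274 CPM elsewhere (log2 fold change 10.97, SE 0.58). It was present in 91.7% and 86.5% of members and in 0 of the oligodendrocyte-gated barcodes of either library. Unc5cl, a death-domain protein related to the netrin receptors, was at 1763 and 1339 CPM against 0.701 and 0.578 (log2 fold change 10.66, SE 0.60). Wdr49, a repeat protein, was at 1925 and 1379 CPM against 1.73 and 2.01.

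Of the 20, Sntn and Ttll6 are examples of genes known from the cilium that were not on the lists. Sntn, a protein of the ciliary tip, was at 249 and 171 CPM in members and at 0.0825 and 0.0608 CPM in the other barcodes. Ttll6, which adds glutamate chains to tubulin, was at 346 and 232 CPM against 0.124 and 0.0912. Iqca and Ccdc180 were at 487 and 908 CPM in library 2 and at 312 and 513 CPM in library 3, and Fam216b at 303 and 201 CPM. The names of 8 of the 20 are those of clones or gene models only. Of these, C230072F16Rik was at 1536 and 846 CPM against 0.495 and 0.487, and Gm10714 at 919 and 785 CPM against 0.784 and 0.456.

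**Figure D3:**
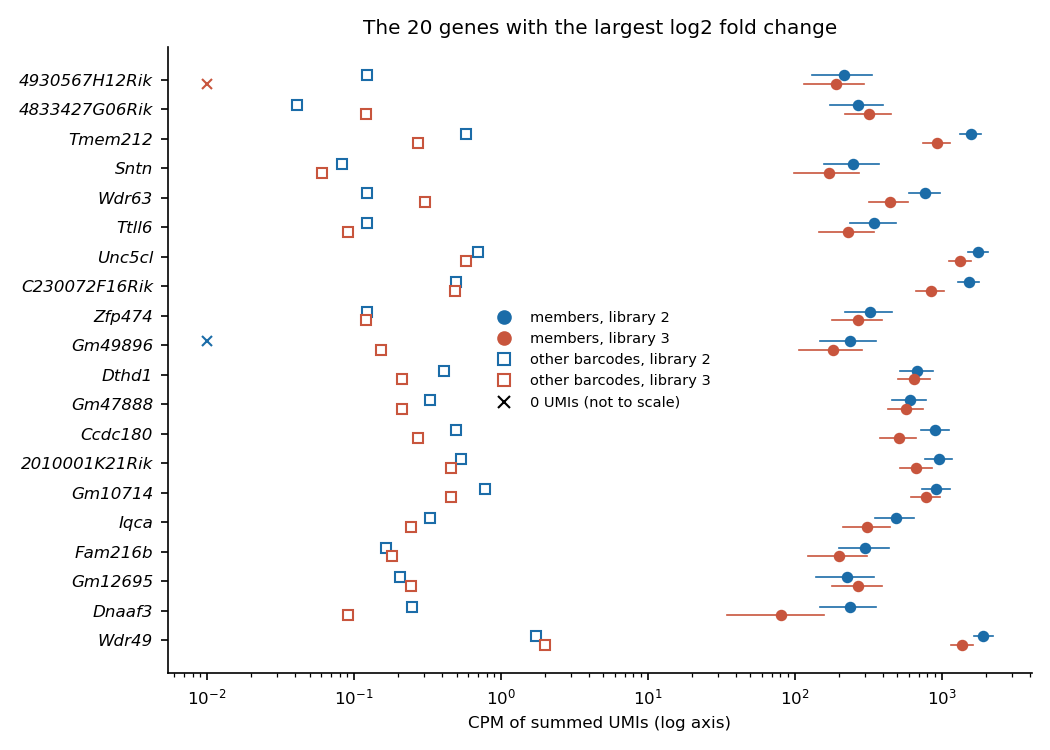
Levels of the 20 genes in CPM of summed UMIs on a log axis, for members (circles, with exact Poisson 95% intervals that cover counting error only) and other barcodes (squares) of libraries 2 and 3; crosses stand for 0 UMIs and are not to scale. Members range from 80.5 to 1925 CPM, and all other barcodes lie at or under 2.01 CPM.

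Ependymal genes of the surface, junctions and transport were uneven. Of 16 tested, 9 were higher, 3 lower and 4 neither. Ccdc153, an ependymal marker, was at 195 and 151 CPM in members against 0.536 and 0.365 in the other barcodes. Aqp4, the water channel, was at 227 and 232 CPM against 13.3 and 24.2, and Gja1, the connexin of astrocytes and ependyma, at 173 and 121 CPM against 15.3 and 31.5. Short transcripts that mark ependymal cells in whole-cell data were sparse. Rarres2, the gene of chemerin, had 2 and 3 UMIs and the intermediate filament gene Vim 3 and 5, and both were among the higher genes. S100b, with 4 and 3 UMIs, did not pass, and Cd24a, with 0 and 2, and Mia, with 0 and 1, were not tested. The lower genes were Ank3, Tjp1 and Slc12a2, with Tjp1, a tight-junction scaffold, at 141 and 282 CPM against 600 and 588. Of the 4 core markers fixed for the name beyond the gate, Tmem212, Ccdc153, Rarres2 and Cfap299, all were detected in both libraries, Rarres2 by only 2 and 3 UMIs, and Cfap299 is a gene of axonemes in general. The ependymal name therefore rests mainly on Tmem212 and, with it, Ccdc153, since the gate genes were fixed by the choice of members, and Foxj1 was at 0. Whether these genes set ependymal cells apart from other cells with motile cilia was not tested.

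Planar polarity genes, which align the beat of neighbouring cells, were mostly not called. Of 14 tested, 3 were higher and 1 lower, against 6.01% and 8.63% of all genes tested. Celsr1 was at 108 and 30.2 CPM in members against 3.22 and 4.68 in the other barcodes, Vangl1 at 141 and 80.5 CPM against 6.76 and 7.06, and Fzd3 at 184 and 171 CPM against 36.7 and 40.4. Prickle1 was lower, at 21.6 and 90.6 CPM against 353 and 310.

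Other epithelial-like cells of the ventricle were searched for by their markers. Of the choroid plexus list, 10 of 11 genes had 0 UMIs in the members of library 2 and 8 of 11 in those of library 3, Ttr, Otx2 and Kl among them. Otx2 also had 0 UMIs in the other barcodes of both libraries, and Ttr in those of library 2. Nothing is therefore read from the absence of Otx2 and Ttr from members. The summed level of the list was 0.00108% and 0.00705% of UMIs, against 0.00309% and 0.00276% in the other barcodes. Folr1, on this list and not tested, had 5 UMIs in 5 members of library 3 and 0 in library 2. The other barcodes of library 3 held 0 Folr1 UMIs, while it was detected in those of library 2. Of the tanycyte list, Rax and Gpr50 had 0 UMIs in members of either library. Nothing is read from this, since Gpr50 had 0 in the other barcodes of both libraries and Rax in those of library 2. Of the 6 tested genes 0 were higher and 2 lower, against 6.01% and 8.63% of all genes tested. Slco1c1, an organic anion transporter, was among the lower genes at 1 and 0 UMIs, and its call was lost without the limit on astrocyte genes (log2 fold change -0.08) and in DESeq2 (-3.78). Neural stem cell and neuroblast genes gave 0 higher and 2 lower of 5 tested, Dcx and Egfr, too few to set against those shares. Both calls were lost in DESeq2 (log2 fold change -2.14 for Dcx and -2.24 for Egfr), and that of Egfr also without the replicate block (-2.21) and without the limit on astrocyte genes (-0.88).

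Of 8 microglial genes tested 2 were higher in members and 1, Inpp5d, lower, a call that rests on a count of 0. Over all genes tested, 6.01% were higher and 8.63% lower. Counts this small are not read as a result about the microglial or the vascular list. Dock8 was at 195 and 70.5 CPM in members against 16.5 and 11.6 in the other barcodes, and Cx3cr1 at 86.5 and 70.5 CPM against 14.4 and 9.15. Csf1r, C1qa, C1qb, Tmem119 and Inpp5d, markers of the same cell, had 0 UMIs in members of either library. The list summed to 0.0292% and 0.0181% of UMIs against 0.0131% and 0.00861%. Of the 10 vascular genes tested 1 was higher, 2 lower (Atp13a5 and Ebf1, both at 0 UMIs in members) and 7 neither. The higher gene was Mecom, a transcription factor, at 130 and 191 CPM against 5.32 and 8.82. Of the 10 vascular genes, 8 were at 0 UMIs in each library, Cldn5, Flt1 and Rgs5 in both.

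Neuronal and oligodendrocyte markers were low in members relative to the other barcodes, with a difference between the libraries. The labels describe the samples as neuronal cell types, yet 5 of the 9 neuron genes, Gad1, Gad2, Slc17a6, Slc17a7 and Slc32a1, had 0 UMIs in the members of library 2. The neuron list summed to 0.203% of UMIs in the members of library 2 and to 0.625% in those of library 3, against 1.51% and 1.19% in the other barcodes. Of the 621 neuron-list UMIs in the members of library 3, 522 came from the 4 low-share members, and without them the level was 0.156%. Meg3, a noncoding RNA abundant in neurons, followed the same course, with 1341 CPM in library 2 and 4248 CPM in library 3, or 901 CPM without those 4. In all, 6 of 9 neuron genes were lower and 0 higher, and the call of Meg3 was lost without the replicate block (log2 fold change -2.11), with at least 8 ciliary UMIs (-2.32) and with DESeq2 size factors in edgeR (-2.13). Of 8 oligodendrocyte genes 5 were lower and 0 higher, and in DESeq2 2 calls were lost among the 4 of these genes followed there. Mbp, the most abundant, had 5 and 4 UMIs, and no member had more than 0.153% of its UMIs from the list.

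**Figure D4:**
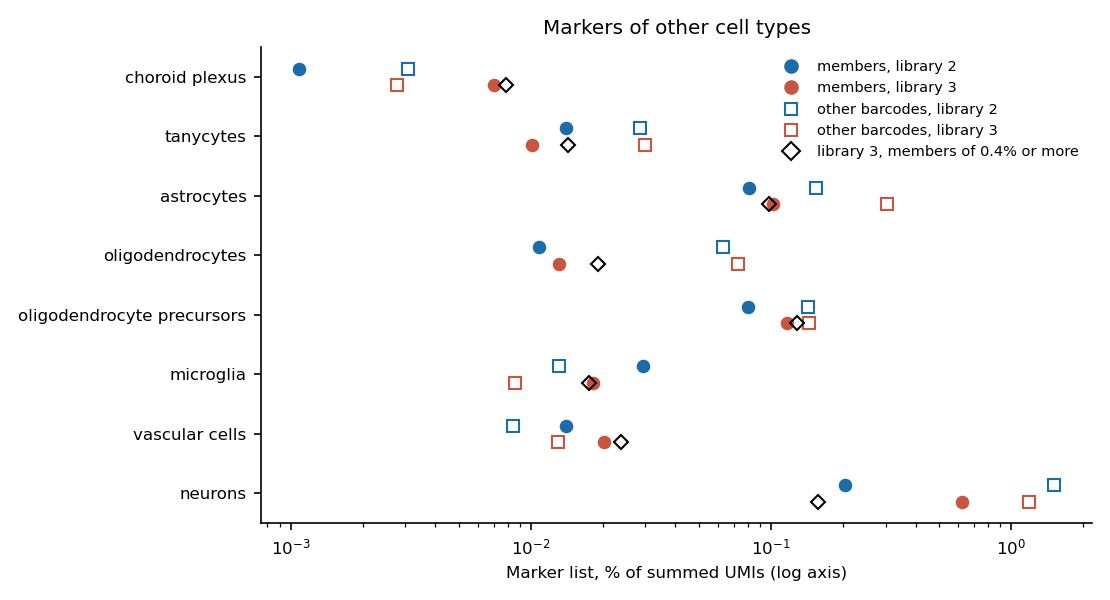
Summed UMIs of each marker list as a percentage of all UMIs, on a log axis, in members (circles) and other barcodes (squares) of libraries 2 and 3; diamonds give library 3 without the 4 low-share members. The neuron list of library 3 moves from 0.625% to 0.156%, while the 4 barcodes hold 522 of its 621 UMIs.

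Genes that were lowest relative to the other barcodes, among those found in at least 20% of them in each library, were nearly all missing from members. Nrp1, Ppp1r16b, Matk, Camkv, Tmem63c and Mgat3 had 0 UMIs in both libraries and Chst9 had 1. The calls of the 6 genes at 0 rest on a count of 0. Low levels of all these genes in members follow from the choice by fold. Nrp1, a receptor for semaphorins, was at 104 and 94.6 CPM in the other barcodes and therefore at least 6.29-fold lower in members, taking 3 counts over both libraries as the limit. For Mgat3, a glycosyltransferase at 50.7 and 43.1 CPM, the bound was 2.96-fold.

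Against astrocytes, the glia most like ependymal cells, the axonemal genes differed as well. Astrocyte-gated barcodes, with 0.8% or more of UMIs from the 4 astrocyte gate genes and under 0.2% from the ciliary ones, numbered 530 in library 2 and 1213 in library 3. In the same test 1034 of 8180 genes were higher in members (12.6%) and 718 lower (8.78%), with a median log2 fold change of -0.17. The gate used this contrast too, so the counts are again a description. Of the 95 axonemal genes 76 were tested, 71 were higher and 0 lower, with a median of 6.27. The filter on low counts left out the other 19. Genes near 0 in astrocyte-gated barcodes, such as Wdr63 and Armc4 at 0 UMIs in library 2, passed it with their counts in members. The count of 0 lower genes is therefore not read as a result. Spef2, a central-pair gene, was at 1763 and 1158 CPM in members against 39.8 and 26.9 in astrocyte-gated barcodes, 48.8 and 40.3 in oligodendrocyte-gated barcodes and 9.32 and 8.21 in all other barcodes.

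Astrocyte genes outside the gate were lower than in astrocyte-gated barcodes in 9 of 12 cases and higher in 0. Gpc5, a glypican abundant in astrocytes, was at 97.3 and 383 CPM in members and at 12148 and 15283 CPM in astrocyte-gated barcodes. Gja1, Aqp4 and Gfap did not pass. Aqp4 was at 227 and 232 CPM in members and 150 and 142 CPM in astrocyte-gated barcodes, and Gja1 at 173 and 121 against 187 and 200. Of the gate genes, given without a test, the glutamate transporter Slc1a3 stood at 508 and 503 CPM in members and at 3084 and 3063 CPM in astrocyte-gated barcodes, and the transporter Slc1a2 at 173 and 171 CPM against 9425 and 9327. Per kilobase of gene span, members held 6.63 and 6.57 CPM of Slc1a3 and 1.31 and 1.30 CPM of Slc1a2. Ependymal surface genes were higher in 5 of 13 cases and lower in 3, Gjb6, Cdh2 and Tjp1. Of 7 neuron genes tested 1, Meg3, was higher and 0 lower, and of 5 oligodendrocyte genes 0 passed. The Meg3 call was lost in DESeq2 (log2 fold change 1.70) and with at least 8 ciliary UMIs (1.69). It was also lost at a ciliary share of 0.4% or more (0.47) and without the 10% deepest members (0.37). The neuron list summed to 0.162% and 0.0895% of UMIs in astrocyte-gated barcodes, against 0.203% and 0.625% in members.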

How the data were processed

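Nuclei of the dissected BLA were profiled with 10x 3′ v3.1 chemistry, and reads were aligned to mm10 and counted with Cell Ranger 7.0.1 per the submitters' processing notes. The authors deposited 1 matrix of raw UMI counts for each library, with no cell annotation. Whether intronic reads were counted is not given in the sources used here.

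Members were gated as described above, and the members and gene lists were chosen with earlier results of these data known. Counts were summed per library over members, other, astrocyte-gated and oligodendrocyte-gated barcodes (the last with 1% or more of UMIs from oligodendrocyte genes). Sums were compared in edgeR 4.0.16 (R 4.3.3, filterByExpr, TMM, glmQLFTest) with the library as a block, or in DESeq2 1.42.0. The block pairs members and other barcodes of the same library by design, which leaves 1 residual degree of freedom, so the spread is borrowed across genes. P-values measure the spread between these libraries only. The procedure was tested on simulated data, but no outcome of that test is given here and nothing about these p-values is drawn from it. Named genes were, outside the gate, the 20 with the largest and 8 with the smallest log2 fold change past the threshold and found in at least 20% of the barcodes concerned, up to 4 genes with the highest CPM of each list, the gate genes and 6 regulators. Further genes were named after their values were seen. Some genes that the rule names are not reported here. Gene spans were taken from annotation matching 99.6% of 32285 identifiers. Alternatives were other normalizations, filters and gates, no block and each library left out.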

Additional observations from a re-analysis of the deposited data

Results flagged for a closer look

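Library 1, in which no barcode met the gate, nevertheless held 895 UMIs of the 6 ciliary gate genes, or 110.8 CPM over all its barcodes, and this signal outside the compared libraries is why it is listed. The highest share in a single barcode was 0.106%. Dnah9 gave 544 of the UMIs (67.3 CPM), close to its level in the other barcodes of library 2 (79.4 CPM) and library 3 (61.2 CPM). Dnah12 was at 10.4 CPM against 5.65 and 3.80, and Foxj1 had 34 UMIs, 4.21 CPM against 0.165 and 0.182.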

How the results depend on the processing

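The number of genes lower than in the other barcodes was 507 in DESeq2, against 1331, with 61.8% of calls higher against 41.1%. With DESeq2 size factors in edgeR it was 1048, with 1031 higher (49.6%). Against astrocyte-gated barcodes the number lower was 397 in DESeq2 and 1147 without a filter on low counts, against 718, and the share of calls that were higher was 65.5% and 44.3%, against 59.0%. Of the calls against the other barcodes, 1296 of the 1328 in DESeq2 were shared with edgeR. The cause of these shifts was not tested. The median log2 fold change of all genes moved from -0.80 to -0.36 in DESeq2, -0.61 with its size factors, -1.83 without a filter and -1.12 without the 10% deepest members. Without the replicate block, 1013 genes were higher and 1178 lower than in the other barcodes, and 1171 higher and 841 lower than in astrocyte-gated barcodes. Of the calls for genes named here, 4 were lost and 3 gained without the block. Among the genes named here, no called gene changed sign under the alternatives that gave calls. The other called genes were not followed for this. The share of members ranged from 0.820% to 1.27% when 1 library was left out and from 0.987% to 1.27% on average under the other gates, which found 80 to 103 members. A fit with 1 library left out has no residual degrees of freedom, so it gave folds but no calls. Library 1 could not be added, because it held 0 members, and leaving out members with 1% or more oligodendrocyte genes removed none. The number of members and their low depth limit what can be seen of short or rare transcripts.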

Other observations

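Genes outside every list, chosen after their values were seen, extended the description. Each was higher than in the other and than in astrocyte-gated barcodes by edgeR with Benjamini-Hochberg adjustment. Syne1, a giant protein of the nuclear envelope, was at 8090 and 5859 CPM in members of libraries 2 and 3 and at 938 and 898 CPM in the other barcodes (log2 fold change 2.35, SE 0.66). Adamts20, a secreted metalloprotease, was at 2358 and 1711 CPM against 22.1 and 19.7. Adgrv1, the very large adhesion receptor of hair-cell links, was at 1406 and 1228 CPM against 20.1 and 25.1.

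Ttll3, a glycylase, was at 541 and 383 CPM against 18.5 and 13.5, and Ttll8, also a glycylase, at 638 and 443 CPM against 9.28 and 14.5. Ttll5, a glutamylase, was at 649 and 423 CPM against 130 and 124. Agbl4, which trims glutamate chains, was at 3872 and 3463 CPM against 856 and 888, a call that was lost without the replicate block (log2 fold change 1.51) and with at least 8 ciliary UMIs (1.54).

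Rgs22 was at 2022 and 1631 CPM in members against 3.51 and 3.28 in the other barcodes. Shank2, a scaffold known from synapses, was at 2423 and 1862 CPM against 376 and 284, and at 53.5 and 29.3 CPM in astrocyte-gated barcodes. The nuclear receptor Esrrg was at 1709 and 896 CPM against 167 and 187. The mitochondrial transcript mt-Co1 was at 1687 and 674 CPM against 128 and 88.6.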
